A study of Mus musculus with 84 samples.

Results

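The genes described here encode proteins of the lysosome: its membrane glycoproteins, its hydrolases with their cofactors, subunits of the proton pump that acidifies it, and Tfeb, a transcription factor that drives lysosomal genes. The 34 genes were taken from the 49671 gene identifiers of the count files by matching each Ensembl identifier to its symbol, and every one of the 34 was found. They were 8 membrane proteins, 13 hydrolases of glycans and glycosaminoglycans, 5 genes of lipid handling and enzyme activation, 3 of a peptidase, thioesterase and phospholipase family group, 4 of the proton pump, and Tfeb.

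Lysosomes receive material from phagocytosis, endocytosis and autophagy and break it down at acid pH with a large set of hydrolases, most of which carry a mannose 6-phosphate tag that routes them there. The vacuolar ATPase (V-ATPase) pumps the protons in, and TFEB moves to the nucleus under starvation or lysosomal stress and binds a palindromic E-box with the core CACGTG in the promoters of many lysosomal genes. Microglia, the resident macrophages of the brain, take up myelin, synapses and dying cells, and inherited loss of many of these hydrolases in humans causes lysosomal storage disease of the brain.

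Reads were counted per gene in 84 bulk RNA-seq libraries. Each was made from microglia sorted from mice 1, 7, 14, 30 and 60 days after a severe traumatic brain injury. Injured mice received clodronate liposomes (24 libraries), which the series used to deplete peripheral monocytes, vehicle liposomes made with PBS (21 libraries), or the injury with no liposomes, called injury only below (20 libraries). The uninjured mice (19 libraries), named sham in the titles, carried the treatment label for no treatment, and the labels do not say whether they had surgery. Strain, genotype, sex, age, the injury device, the liposome dose and the sort gates were not given in the sources used here. Clodronate and vehicle groups held 6 and 4 libraries at day 1, 5 and 4 at day 7, 5 and 5 at day 14, 4 and 4 at day 30, and 4 and 4 at day 60. Injury only and uninjured groups held 5 and 5 libraries at day 1, 5 and 4 at day 7, 3 and 3 at day 14, 4 and 4 at day 30, and 3 and 3 at day 60. Whether each library stands for its own mouse is not stated in the labels, and p-values measure the spread between libraries, which may be technical. Library names carried a year. Most libraries shared a year; 3 clodronate and 2 vehicle libraries of day 1 carried a later one, injury only and uninjured libraries of day 14 an earlier one, and day 60 libraries the latest.

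Libraries held 1109856 to 18654785 counts in genes, and reads in no gene made up 2.59 to 22.4% of each. A set of 4 libraries of day 14 stood apart. For genes such as Cd63 and Grn, clodronate library 1 was as low as or lower than the vehicle libraries and vehicle library 1 as high as the clodronate libraries; uninjured library 1 lay among the injured libraries, and uninjured library 3 was rich in markers of monocytes and neutrophils, with summed levels of 7875 and 7196 CPM (a normalised count, defined below), and with 3766 CPM of microglial markers. Labels were kept as deposited, and the day 14 comparisons are given with and without these libraries. Vehicle library 4 of day 7 was shallow, with 1134078 counts and 22.4% of reads in no gene. At day 60 vehicle library 1 held 1109856 counts. Uninjured libraries of that day held 2930843 to 3739798 counts, against 8431455 to 12306417 in injury only libraries. Microglial markers such as Tmem119 and P2ry12 were present in every library but uninjured library 3 of day 14 at a summed level of the 9 markers between 14822 and 35661 CPM. In bulk libraries, fewer cells of a type and less RNA per cell cannot be told apart.

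The promoters of some of these genes hold the E-box bound by TFEB. RefSeq promoter windows (build GRCm38.p6, 250 bases before to 50 after each annotated start) were at hand for 30 of the 34 genes, all but Asah1, Atp6v0d2, Galns and Npc1. The palindrome CACGTG, which reads the same on both strands, was found in 8 of the 30 (26.7%), against 8.09% of 27025 mouse genes with a window: Atp6v0d1, Atp6v1a, Gla, Glb1, Lamp1, Mcoln1, Naglu and Sgsh. The longer palindrome TCACGTGA, which contains the first, was found in 4 of the 30 (13.3%), against 1.12% of all genes: Atp6v0d1, Atp6v1a, Gla and Mcoln1. The 250 bases before the start are shown for 4 of these genes, chosen because they rose after injury at day 7, with each CACGTG in capitals and the rest in lower case, 5′ to 3′ on the gene's strand. The stretches are chrX:134601006-134601255 on the minus strand for Gla, chr8:13158911-13159160 on the plus strand for Lamp1, chr16:44139260-44139509 on the minus strand for Atp6v1a and chr9:114400828-114401077 on the plus strand for Glb1.
Gla: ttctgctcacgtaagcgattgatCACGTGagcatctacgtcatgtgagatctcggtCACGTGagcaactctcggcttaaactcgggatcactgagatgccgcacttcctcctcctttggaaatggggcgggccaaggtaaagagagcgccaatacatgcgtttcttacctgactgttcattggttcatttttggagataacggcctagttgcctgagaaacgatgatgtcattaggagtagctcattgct
Lamp1: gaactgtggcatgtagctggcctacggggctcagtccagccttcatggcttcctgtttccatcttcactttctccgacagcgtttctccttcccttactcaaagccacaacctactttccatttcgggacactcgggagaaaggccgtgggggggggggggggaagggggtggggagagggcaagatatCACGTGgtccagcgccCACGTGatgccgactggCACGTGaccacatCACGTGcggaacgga
Atp6v1a: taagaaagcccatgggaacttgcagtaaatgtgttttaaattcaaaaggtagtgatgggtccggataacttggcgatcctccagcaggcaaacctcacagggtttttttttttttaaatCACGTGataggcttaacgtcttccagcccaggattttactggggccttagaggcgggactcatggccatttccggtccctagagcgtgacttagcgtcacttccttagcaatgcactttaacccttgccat
Glb1: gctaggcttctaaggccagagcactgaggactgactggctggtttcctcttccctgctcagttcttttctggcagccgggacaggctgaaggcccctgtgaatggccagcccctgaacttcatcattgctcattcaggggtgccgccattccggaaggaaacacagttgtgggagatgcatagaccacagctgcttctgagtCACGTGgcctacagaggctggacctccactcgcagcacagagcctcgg
The 2 copies in Gla lie 227 and 194 bases before the start and both sit within TCACGTGA. Lamp1 has 4 copies in the last 61 bases, beginning 61, 45, 28 and 15 bases before the start. Atp6v1a has its single copy 131 bases before the start, within TCACGTGA, and Glb1 has 1 copy 48 bases before it. A match describes these letters and was not tested as a binding site. Cd63, Gusb, Grn, Npc2 and Pld3 also rose at day 7, and their windows held no CACGTG. Atp6v0d1, Mcoln1, Naglu and Sgsh held it and were not called as changed at day 7 by the test described below. A link between these letters and the rise was not tested.

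Levels below are CPM, a gene's counts scaled to the size of its library, after scaling library sizes by the trimmed mean of M-values (TMM) over all 84 libraries. Divided by exon length, the mean over the 84 libraries ran from 1127 CPM per kb for Laptm5, a lysosomal membrane protein of immune cells, to 0.921 CPM per kb for Atp6v0d2, the proton pump's d2 subunit. Next to Laptm5 came Cd68, a macrophage lysosomal glycoprotein (869 CPM per kb), Grn, progranulin (820), Lamp1, an abundant lysosomal membrane glycoprotein (712), Hexa, the alpha subunit of beta-hexosaminidase (644), and Psap, the saposin precursor (466). At the low end, above Atp6v0d2, stood Sgsh, heparan N-sulfatase (2.95 CPM per kb), and Npc1, the cholesterol exporter of the lysosomal membrane (3.41).

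As a share of all gene counts, the 34 genes together made up 1.66 to 1.81% of each injury only library against 1.80 to 1.95% of each uninjured library at day 1, and 2.29 to 2.41% of injury only against 1.82 to 1.92% of uninjured libraries at day 7. The injured share thus overlapped the uninjured one at its upper edge at day 1 and lay wholly above it at day 7. At day 1, the share was 1.98 to 2.25% in clodronate libraries and 1.85 to 2.01% in vehicle libraries, a slight overlap. At day 30 injury only libraries, at 1.93 to 1.99%, lay just above vehicle libraries (1.85 to 1.90%) and uninjured libraries (1.83 to 1.92%), and at day 60 the ranges of the 4 treatments overlapped.

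**Figure D1:**
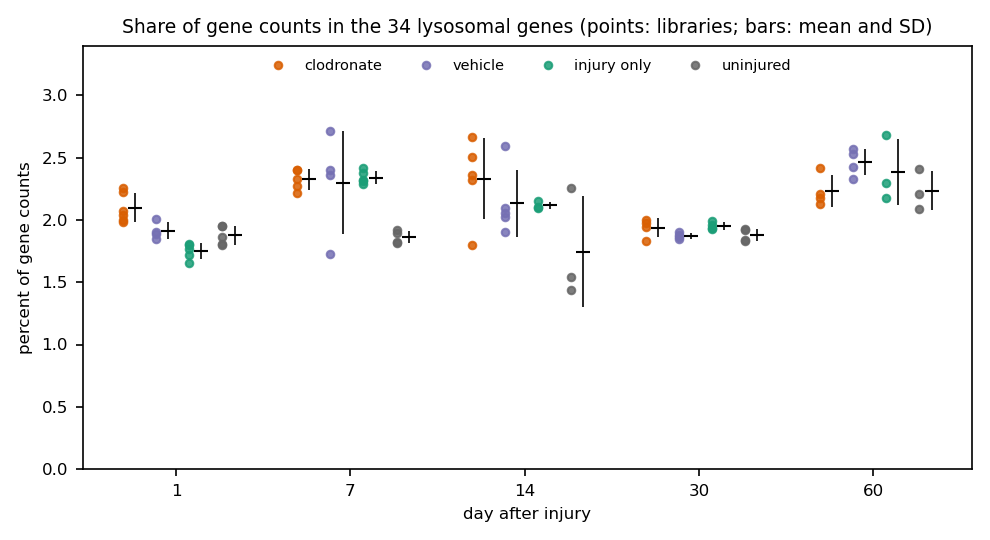
Percent of gene counts held by the 34 lysosomal genes in each library, by day after injury and treatment; points are libraries and bars the mean and SD. At day 7 injury only libraries (2.29 to 2.41%) sit above uninjured libraries (1.82 to 1.92%), and the groups with the widest spread are vehicle at day 7 (1.73 to 2.71%) and clodronate (1.80 to 2.66%) and uninjured (1.44 to 2.26%) at day 14.

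At 1 day after injury lysosomal genes were called in both directions. In injury only against uninjured microglia, 7 of the 33 genes tested rose (21.2%) and 13 fell (39.4%), so 60.6% were called. Of the 13593 genes tested in this comparison 36.1% were called, 19.1% as higher and 17% as lower. The share of rises was near that of all genes, so their number is no result about the set. A call means an adjusted p under 0.05 in edgeR's quasi-likelihood test with Benjamini-Hochberg adjustment over all genes tested. The median log2 fold change was -0.17 over the 33 genes and -0.01 over all genes. Atp6v0d2 had too few counts to be tested. Membrane proteins gave 2 rises and 4 falls of 8, glycan hydrolases 3 rises and 6 falls of 13, lipid handling 1 fall of 5, the peptidase group 1 fall of 3, and the proton pump 2 rises of 3. Groups did not overlap for 6 genes above and 9 below, where 15.8% and 11.9% of all genes tested did not overlap in those directions.

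Among membrane proteins the largest rise was that of Cd63, a tetraspanin of late endosomes and lysosomes (chr10:128900989-128912822 in GENCODE M21 on GRCm38, the annotation of all gene positions given). Cd63 stood at 1107, 1124, 991, 724 and 1065 CPM in injury only libraries against 397, 306, 355, 328 and 333 CPM in uninjured libraries. Every injured library was above every uninjured one, and the log2 fold change was 1.5 (SE 0.13, adjusted p = 2.8e-08). Cd68 had 1290, 1252, 1159, 1010 and 1267 CPM in injury only libraries against 1151, 885, 965, 874 and 848 CPM in uninjured libraries. Its ranges overlapped and its rise was small (0.30, SE 0.10, adjusted p = 0.022). Cd68 lost its call without injury only library 1 or 5 or uninjured library 2, 4 or 5.

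Laptm5, the most abundant of the set per length (chr4:130913125-130936141), fell by 0.62 on the log2 scale (SE 0.10, adjusted p = 2.8e-05). Laptm5 had 3232, 3201, 3074, 3028 and 3325 CPM in injury only libraries against 4968, 4613, 5314, 4311 and 4479 CPM in uninjured libraries, with no overlap. Scarb2 (LIMP-2), the receptor that carries glucocerebrosidase to the lysosome, had 124, 115, 119, 106 and 121 CPM in injury only libraries against 175, 153, 159, 175 and 175 CPM in uninjured ones. The Scarb2 groups were apart and the log2 fold change was -0.56 (SE 0.09, adjusted p = 5.1e-05). Lamp2, whose 2A form is the receptor of chaperone-mediated autophagy, had 666, 589, 561, 547 and 591 CPM in injury only libraries against 783, 718, 761, 780 and 893 CPM in uninjured libraries. Lamp2 was lower in every injured library (-0.45, SE 0.09, adjusted p = 0.00023). Lamp1 fell less (-0.26, SE 0.08, adjusted p = 0.015), with 1 uninjured library at 1617 CPM level with the highest injured one at 1618 CPM. Mcoln1, the lysosomal calcium channel TRPML1, was at -0.24 (SE 0.13) and Npc1 at -0.17 (SE 0.13), and neither was called.

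Glycan hydrolases moved in both directions. Hexa (chr9:59539540-59565109), which removes hexosamines from GM2 ganglioside, had 634, 726, 594, 643 and 653 CPM in injury only libraries against 1365, 1158, 1492, 1304 and 1221 CPM in uninjured libraries. Its injured libraries held about the same level among themselves, all far under the uninjured ones (log2 fold change -1.05, SE 0.13, adjusted p = 2.4e-06). Arsb, the sulfatase of dermatan and chondroitin 4-sulfate (chr13:93771630-93943016), had 82.4, 66.4, 77.1, 118 and 110 CPM in injury only libraries against 199, 212, 213, 213 and 179 CPM in uninjured libraries. Arsb had the largest fall of the set (-1.21, SE 0.19, adjusted p = 4.3e-05), and its groups did not overlap. Sgsh, a sulfamidase of heparan sulfate, had 9.73, 8.23, 9.82, 8.84 and 4.79 CPM in injury only libraries against 16.8, 19.5, 14.1, 11.8 and 13.4 CPM in uninjured libraries. The Sgsh groups were apart at these low levels (-0.91, SE 0.22, adjusted p = 0.0022). Exons of an antisense gene cover 32.3% of the annotated exon bases of Arsb (Gm26527) and 21.6% of those of Sgsh (Card14), and the sources used here do not give the strand setting of the counting.

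Glb1, the lysosomal beta-galactosidase, had 63.8, 62.7, 59.3, 69.5 and 67.1 CPM in injury only libraries against 107, 91.9, 94.5, 84.3 and 75.5 CPM in uninjured libraries. All injured libraries were lower (-0.54, SE 0.13, adjusted p = 0.0022). Idua, which removes iduronic acid from heparan and dermatan sulfate, fell by 0.39 (SE 0.10), and Man2b1, the lysosomal alpha-mannosidase, by 0.29 (SE 0.10), on the log2 scale. Man2b1 lost its call without any of injury only libraries 1, 3 and 4 or uninjured libraries 1, 2 and 3.

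In the opposite direction, Gusb, the beta-glucuronidase of glycosaminoglycan breakdown, had 558, 529, 595, 575 and 627 CPM in injury only libraries against 386, 346, 371, 338 and 333 CPM in uninjured libraries. The groups were well apart (0.66, SE 0.08, adjusted p = 1.4e-06). Gla, alpha-galactosidase A, the enzyme missing in Fabry disease (chrX:134588149-134601125), had 59.1, 43.6, 44.3, 35 and 37.1 CPM in injury only libraries against 21, 30.5, 23.6, 23.6 and 23.4 CPM in uninjured libraries. Gla was higher in all 5 injured libraries (0.80, SE 0.17, adjusted p = 0.00091). Galns, the sulfatase of keratan and chondroitin 6-sulfate, had 34.3, 26.1, 34.6, 31.1 and 41.0 CPM in injury only libraries against 20.4, 18.0, 17.9, 15.4 and 21.2 CPM in uninjured ones. The Galns rise matched that of Gla in size (0.80, SE 0.13, adjusted p = 5e-05). Manba, Naglu, Neu1 and Ids, which act on mannosides, heparan sulfate, sialic acid and sulfated iduronic acid, were between -0.11 and 0.07 and were not called.

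Of the remaining groups, Tpp1, a tripeptidyl peptidase, had 392, 425, 344, 400 and 428 CPM in injury only libraries against 572, 534, 549, 556 and 527 CPM in uninjured libraries. Tpp1 was lower in all 5 (-0.50, SE 0.09, adjusted p = 0.00024). Asah1, acid ceramidase, fell by 0.24 on the log2 scale (SE 0.09, adjusted p = 0.029) with overlapping groups, and lost its call without any of injury only libraries 2, 3 and 4 or uninjured libraries 1, 3 and 5. Grn (-0.12), Psap (-0.16), Npc2, the soluble cholesterol carrier (-0.19), Lipa, the acid lipase (-0.01), Ppt1, a palmitoyl thioesterase (-0.22), and Pld3, a lysosomal exonuclease of the phospholipase D family (-0.08), were not called. Among pump subunits, Atp6v1a, the catalytic A subunit, had 161, 154, 151, 125 and 131 CPM in injury only libraries against 77.5, 92.8, 81.9, 109 and 121 CPM in uninjured libraries. The groups did not overlap (0.54, SE 0.11, adjusted p = 0.00038). Atp6v0d1, the ubiquitous d subunit, had 82.1, 92.7, 95.3, 83.0 and 83.3 CPM in injury only libraries against 80.3, 71.2, 69.7, 68.4 and 74.2 CPM in uninjured libraries. The Atp6v0d1 rise was the smallest called (0.22, SE 0.08, adjusted p = 0.037), and the call was lost without any of injury only libraries 2 and 3 or uninjured libraries 2, 3, 4 and 5. Tfeb fell by 0.42 on the log2 scale (SE 0.10, adjusted p = 0.0029), with 57.3 to 76.1 CPM in injury only libraries and 74.8 to 102 CPM in uninjured ones.

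Other lysosomal genes, taken from pathway lists of 83 genes, were called at a share of 45.8%, with 18 rises and 20 falls at day 1, where 36.1% of all genes were called. Single lists ran from below that share, as for the V-ATPase and mTORC1 lists, to above it, and these counts describe the lists without setting them apart from other genes. Genes of enzyme sorting gave 7 rises and no fall of 11. Among them Igf2r, the large mannose 6-phosphate receptor, was near 0 in uninjured libraries (4.66 ± 4.47 CPM in injury only and 0.163 ± 0.158 CPM in uninjured libraries, SD, n = 5 each), Gnptab, which makes the tag, was at 0.77 (SE 0.11), and M6pr, the small receptor, at 0.57 (SE 0.08). Other V-ATPase subunits gave 3 rises of 14, which were Atp6v0a1 (0.67, SE 0.13), Atp6v1b2 (0.59, SE 0.11) and Atp6v1h (0.45, SE 0.11). Other hydrolases gave 5 rises and 10 falls of 23; Acp5, an acid phosphatase best known from osteoclasts, had 3.21 ± 1.38 CPM in injury only and 0.201 ± 0.217 CPM in uninjured libraries, and Naaa, an acid amidase, was at 1.04 (SE 0.15). Other membrane proteins gave 2 rises and 7 falls of 17, among them Slc11a1, a metal transporter (0.67, SE 0.12), Tmem106b (-0.56, SE 0.12) and the potassium channel Tmem175 (-0.51, SE 0.12). The TFEB relatives and lysosomal mTORC1 genes gave 1 rise and 3 falls of 18: Tfec, a TFEB relative, rose to 3.77 ± 2.36 CPM in injury only libraries, against 0.441 ± 0.411 CPM in uninjured ones, while Flcn (-0.59, SE 0.14), Rptor (-0.55, SE 0.14) and Tfe3 (-0.38, SE 0.09) fell.

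Cell type markers moved with the injury at day 1. All 9 microglial markers fell, with a summed level of 16708 to 19281 CPM in injury only libraries and 31683 to 35661 CPM in uninjured libraries, and 8 of the 10 monocyte markers tested rose, with summed levels of 57.5 to 265 CPM in injury only and 31.2 to 57.3 CPM in uninjured libraries. All 3 neutrophil markers tested rose, at summed levels of at most 9.47 CPM in injury only libraries and 1.01 CPM in uninjured libraries, while Ly6g, Mpo and Camp were at 0 in all 10. Endothelial and mural markers gave 3 rises of 12. The T cell markers Cd3e and Cd3g were at 0 in all 10 libraries. Their part in the lysosomal results was not tested.

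**Figure D2:**
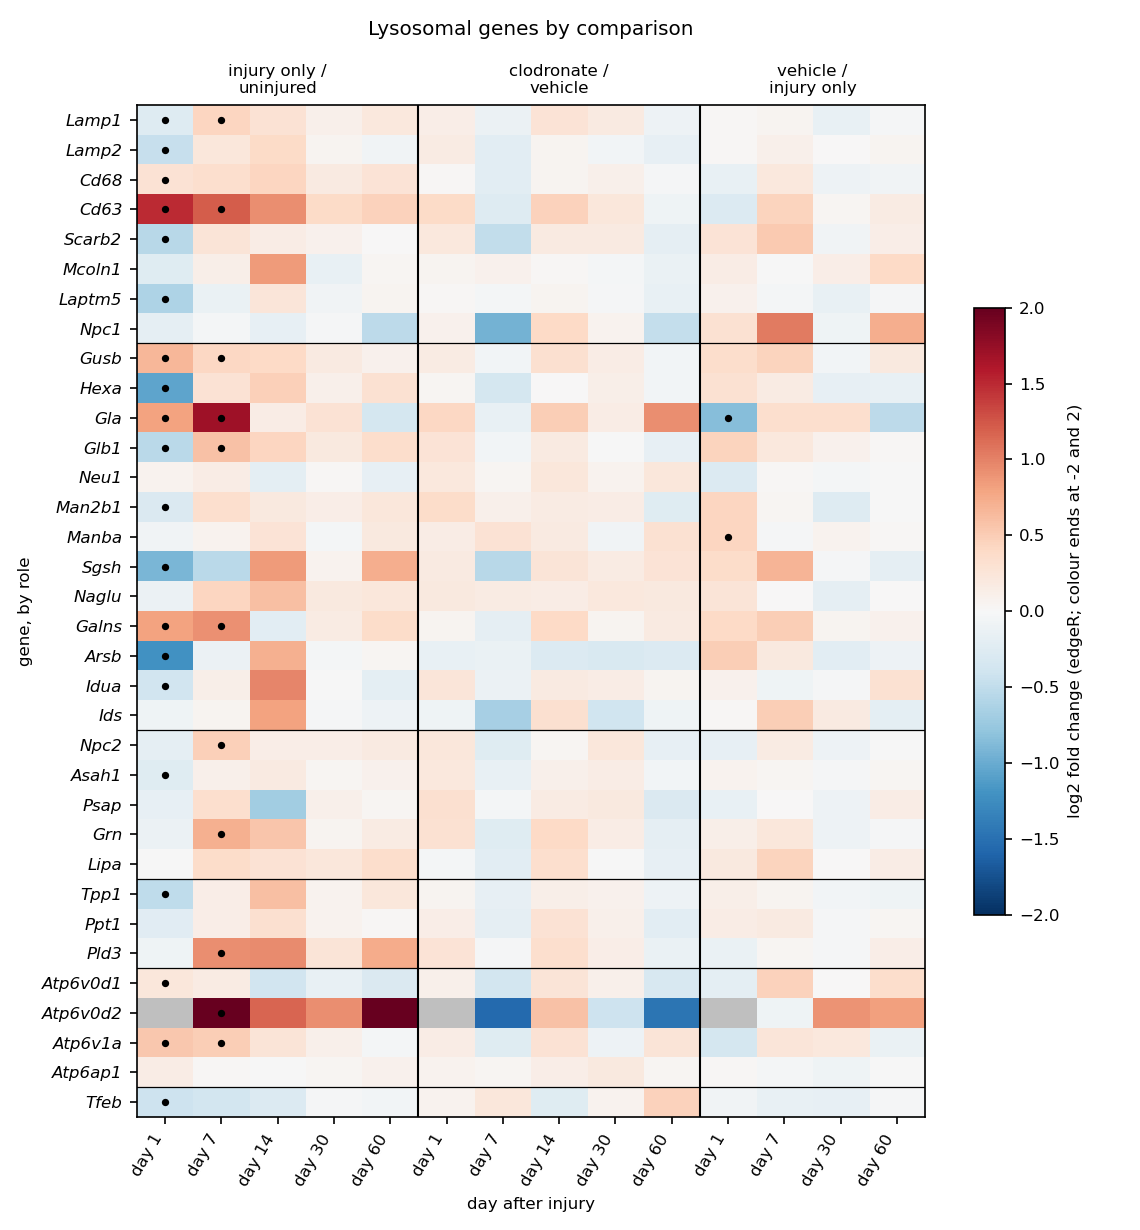
Fitted log2 fold change of each lysosomal gene (rows, by role) in each comparison and day (columns); black dots mark an adjusted p under 0.05 and grey cells genes with too few counts to test. Dots gather in injury only over uninjured at day 1 (7 rises, 13 falls) and day 7 (11 rises), with 2 more in vehicle over injury only at day 1; the colour of Atp6v0d2 rests on very few counts.

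At day 7 the calls were all rises. In injury only against uninjured microglia 11 of 34 genes rose (32.4%) and none fell, where 7.68% of 14278 genes were called, 6.14% as higher and 1.54% as lower. The 11 include Atp6v0d2, which passed the count filter only through injured libraries. With a single count in the uninjured group, a rise was its only possible call. DESeq2's Wald test called 17 of the 34, and 17 had an unadjusted p under 0.05 in edgeR. The median log2 fold change was 0.27 over the 34 genes and -0.003 over all genes, and 29 of 34 were positive. Rises came to 2 of 8 membrane proteins, 4 of 13 glycan hydrolases, 2 of 5 in lipid handling and 1 of 3 in the peptidase group. Pump subunits gave 2 of 4, with Atp6v0d2 among them. Groups did not overlap for 14 genes above and 1 below, where 7.88% and 6.06% of all genes did not.

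Gla had 34.6, 37.8, 23.2, 46.4 and 47.8 CPM in injury only libraries against 11.2, 15.2, 11.0 and 10.2 CPM in uninjured libraries. Its rise was the largest among genes with a measurable uninjured level (1.70, SE 0.23, adjusted p = 7.4e-05), and all injured libraries were above all uninjured ones. Galns had 41.9, 30.7, 37.3, 38.2 and 34.4 CPM in injury only libraries against 17.7, 21.9, 19.7 and 19.5 CPM in uninjured libraries (0.91, SE 0.17, adjusted p = 0.0025). Glb1 had 118, 141, 134, 124 and 128 CPM in injury only libraries against 98.0, 91.0, 80.9 and 79.2 CPM in uninjured libraries (0.59, SE 0.14, adjusted p = 0.011). Galns and Glb1 groups did not overlap; Glb1 lost its call without uninjured library 3. Gusb also rose (0.42, SE 0.12, adjusted p = 0.041), with 439 to 510 CPM in injury only and 320 to 395 CPM in uninjured libraries, and lost the call under the removal of every library but injury only library 3. Hexa was at 0.29 (SE 0.10, adjusted p = 0.091), with injured libraries of 1363 to 1597 CPM all above uninjured ones of 1131 to 1341 CPM, and was not called.

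Cd63 had 666, 670, 733, 613 and 698 CPM in injury only libraries against 378, 259, 265 and 282 CPM in uninjured libraries. The groups were far apart (1.21, SE 0.17, adjusted p = 9.9e-05). Lamp1 rose (0.43, SE 0.12, adjusted p = 0.035), with 1853 to 2091 CPM in injury only and 1423 to 1641 CPM in uninjured libraries, and lost the call without any single library. Grn, the precursor of granulins that act in the lysosome (chr11:102430315-102437048), had 3398, 3592, 3718, 3620 and 3697 CPM in injury only libraries against 2425, 2276, 2129 and 2142 CPM in uninjured libraries. Grn libraries were tight within each group and apart between them (0.71, SE 0.12, adjusted p = 0.0011). Npc2 had 485 to 617 CPM in injury only and 362 to 418 CPM in uninjured libraries (0.48, SE 0.11, adjusted p = 0.0076). Pld3 had 465, 492, 564, 526 and 562 CPM in injury only libraries against 305, 285, 278 and 251 CPM in uninjured libraries, again with no overlap (0.92, SE 0.13, adjusted p = 0.00017).

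Of the pump genes, Atp6v1a had 143, 141, 115, 121 and 125 CPM in injury only libraries against 84.2, 89.1, 99.9 and 100 CPM in uninjured libraries. Atp6v1a rose (0.49, SE 0.12, adjusted p = 0.017) and lost the call without uninjured library 1 or 2. Atp6v0d2, a subunit isoform known from osteoclasts (chr4:19876841-19922605), was all but absent from the uninjured libraries of day 7. Its raw counts were 20, 45, 8, 45 and 35 in injury only libraries against 0, 0, 0 and 1 in uninjured libraries. Uninjured library 1 of day 30, in contrast, held 2.94 CPM, where injury only libraries of day 30 reached at most 2.85 CPM. At day 7 the 153 counts against 1, each over the summed gene counts of its group without TMM scaling, give a ratio of 134. Its exact 95% counting interval of 23.7 to 5335 covers counting error only. At day 1 the raw Atp6v0d2 counts were 2, 0, 2, 3 and 7 in injury only libraries and 0 in all 5 uninjured ones. Also without TMM scaling, its summed level was 4.24-fold that of a floor of 3 counts over the uninjured group. That ratio takes the 14 injured counts as exact, and 7 of them came from 1 library. The relative of Atp6v0d2, Atp6v0d1, was at 0.16 (SE 0.16) at day 7 and was not called.

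Among the genes not called at day 7, Sgsh was at -0.54 (SE 0.27) and Tfeb at -0.36 (SE 0.19), with Tfeb at 56.2 to 73.7 CPM in injury only libraries and 81.9 to 94.3 CPM in uninjured libraries. Tfeb was the single gene of the 34 whose injured libraries all lay below the uninjured ones. Of the 83 other lysosomal genes 4.82% were called, below the 7.68% of all genes, so the following 4 genes are no result about the lists. Acp5 had 7.24 ± 10.7 CPM in injury only libraries (SD, n = 5) and 0.235 ± 0.234 CPM in uninjured libraries (SD, n = 4), Gm2a, the activator that presents GM2 ganglioside to hexosaminidase, was at 0.47 (SE 0.11) and Plbd2 at 0.35 (SE 0.10), while Cd164 fell by 0.67 (SE 0.15). Microglial markers gave 4 falls of 9, at 21893 to 27419 CPM in injury only and 33048 to 34075 CPM in uninjured libraries. Monocyte markers gave 2 rises of 9 tested, at 63.2 to 140 CPM in injury only and 35.3 to 90.2 CPM in uninjured libraries. Endothelial and mural markers gave 8 rises of 12, at 1198 to 1774 CPM in injury only and 704 to 888 CPM in uninjured libraries. Border-associated macrophage markers gave 1 rise and 3 falls of 9. Their part in the lysosomal results was not tested.

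**Figure D3:**
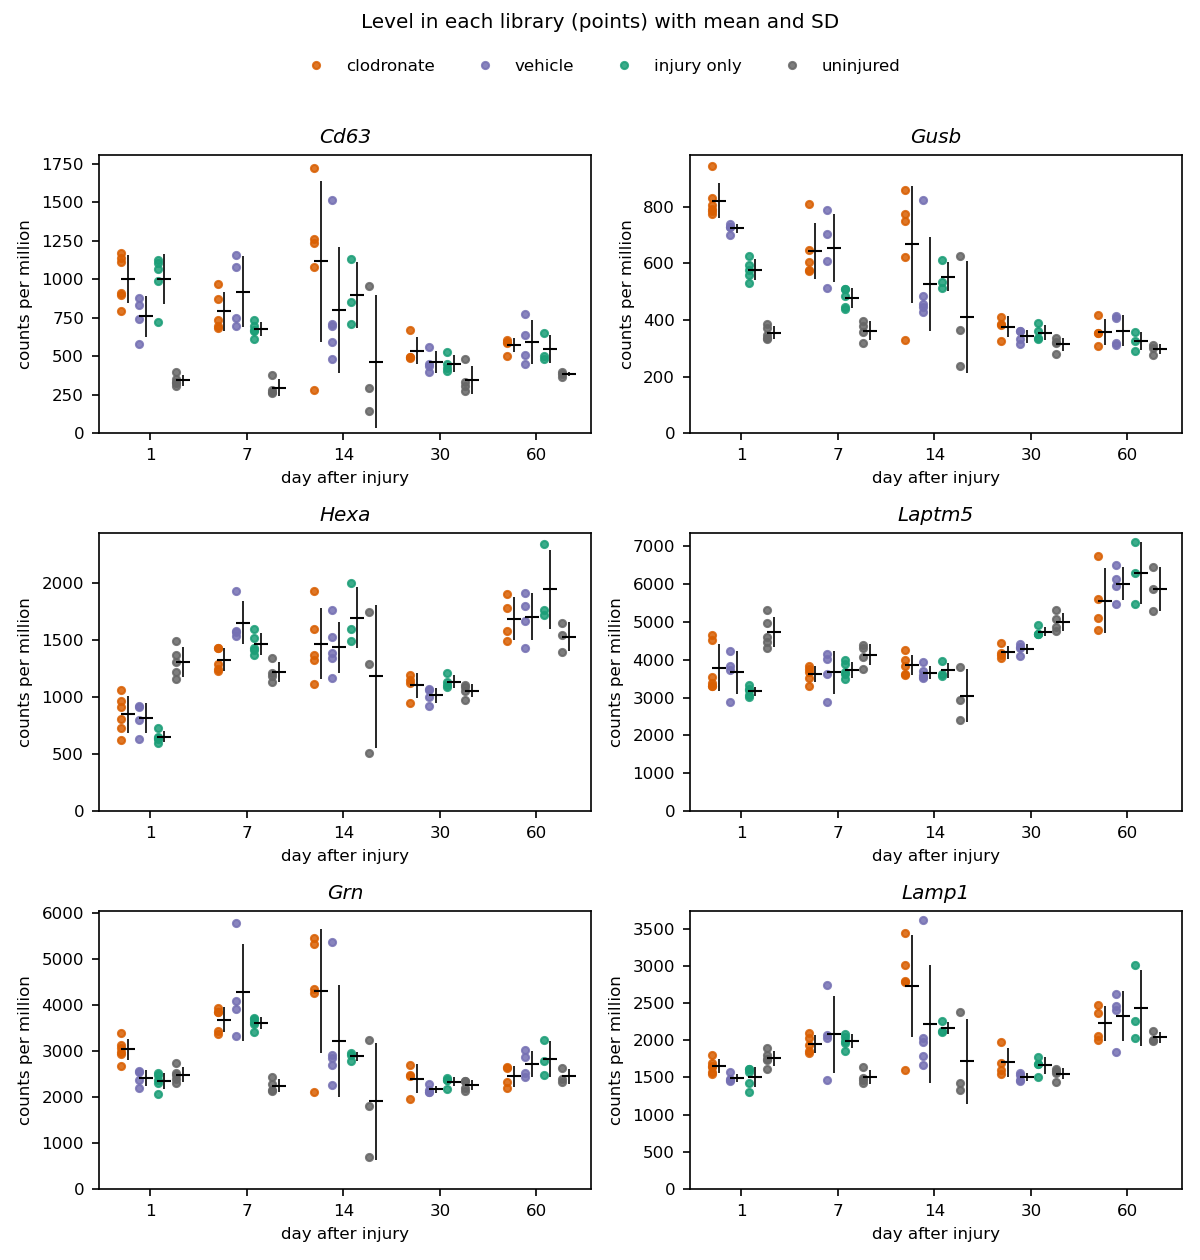
CPM of 6 lysosomal genes in every library by day and treatment; points are libraries, and bars the mean and SD. Cd63 and Gusb are higher in injury only than in uninjured libraries at days 1 and 7, Hexa and Laptm5 lower at day 1, and Grn and Lamp1 higher at day 7.

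Injury only and uninjured libraries of days 1 and 7 shared a library year, so the change of the injury effect between them could be tested. The effect was higher at day 7 than at day 1 in 16 of 34 genes (47.1%) and lower in none, where 19.5% of 14041 genes were called, 9.09% as higher and 10.5% as lower. The largest differences, in log2 units, were those of Hexa (1.32, SE 0.12, adjusted p = 1.6e-07), Glb1 (1.11, SE 0.14), Arsb (1.07, SE 0.20), Pld3 (0.99, SE 0.14), Gla (0.88, SE 0.26), Grn (0.82, SE 0.11) and Scarb2 (0.80, SE 0.12). The other 9, from 0.47 to 0.67, were Lamp1, Lamp2, Npc2, Tpp1, Man2b1, Naglu, Idua, Laptm5 and Psap. Glb1 and Lamp1 fell at day 1 and rose at day 7. Cd63, Gusb, Gla, Galns and Atp6v1a rose at both days, and of these only Gla differed between them; the difference of Cd63 was -0.30 (SE 0.17, adjusted p = 0.25) and that of Gusb -0.26 (SE 0.11, adjusted p = 0.12). Of the 13 genes that fell at day 1, 11 were not called at day 7. With the libraries of all 5 days in the fit, 8 of the 16 kept their call; Gla, Grn, Idua, Laptm5, Naglu, Pld3, Psap and Tpp1 lost it.

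**Figure D4:**
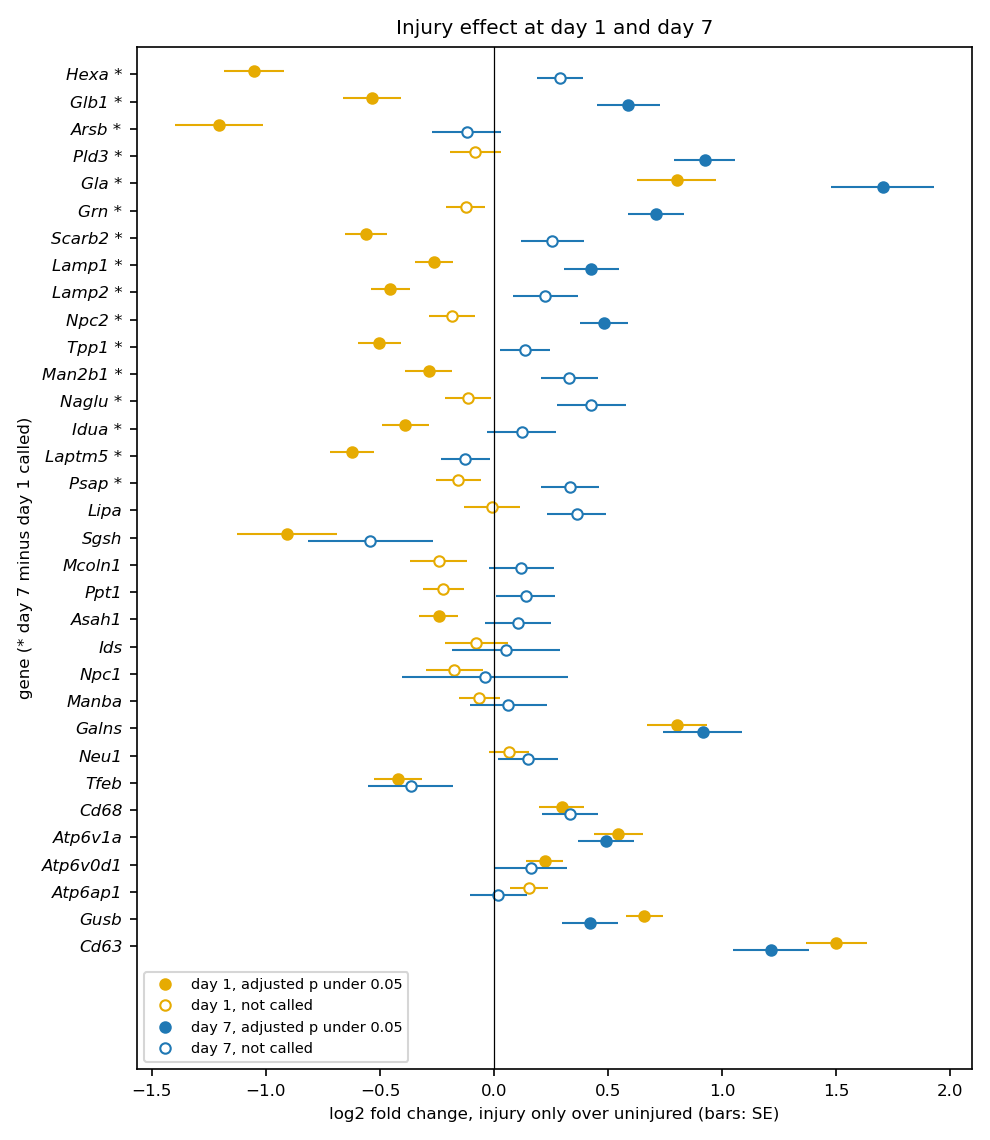
Log2 fold change of injury only over uninjured microglia at day 1 and day 7 for the 33 genes tested at both days, with SE bars; filled points have an adjusted p under 0.05 and asterisks mark genes whose difference between the days was called. Genes are sorted by the difference, from Hexa (1.32) at the top to Cd63 (-0.30) at the bottom.

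Across all 5 days, a test of whether the injury effect differed by day called 7 of 34 genes (20.6%), where 12.2% of 15555 genes were called. They were Hexa (adjusted p = 0.00027), Arsb (0.0045), Laptm5 (0.0056), Glb1 (0.0058), Scarb2 (0.0085), Idua (0.023) and Lamp2 (0.04). The count depended on the fit: it was 0 without day 1, 18 without day 14, 13 without day 60, 2 with the replicate number as a block and 12 with DESeq2 size factors. Days 14 and 60 came from other library years, so day and year cannot be told apart there.

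By days 14, 30 and 60, edgeR called none of the 34 genes between injury only and uninjured microglia, where 0%, 0% and 0.0416% of all genes were called. An unadjusted p under 0.05 was reached by 0, 3 and 3 of the 34 genes, and DESeq2's Wald test called 0, 0 and 1. The 3 genes with the smallest p are given for each day. At day 14 Idua had 119, 106 and 116 CPM in injury only libraries against 89.7, 55.2 and 23.7 CPM in uninjured libraries (0.98, SE 0.45, adjusted p = 0.93). Mcoln1 had 101, 112 and 109 CPM in injury only libraries against 109, 37.4 and 27.3 CPM in uninjured libraries. Sgsh had 15, 16.1 and 22.3 CPM in injury only libraries against 16.8, 6.66 and 5.51 CPM in uninjured ones. In Mcoln1 and Sgsh uninjured library 1 lay among the injured libraries and the other 2 far below.

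Without uninjured libraries 1 and 3, which were set aside after their levels were seen, 1 uninjured library was left, and its spread was assumed to be that of the injured libraries. Against it 15 of 34 genes were higher and none lower, where 17.7% of 14789 genes were called, 11.4% as higher. The fitted changes were 2.64 for Gla (SE 0.39), 2.56 for Ids (SE 0.32), 1.68 for Pld3 (SE 0.29), 1.60 for Cd63 (SE 0.28) and 1.5 for Mcoln1 (SE 0.21). Since these libraries were chosen by level, these values are a description and no support for a call.

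At day 30 Cd63 had 530, 407, 452 and 422 CPM in injury only libraries against 480, 275, 306 and 331 CPM in uninjured libraries (0.38, SE 0.16, adjusted p = 1). Naglu had 297, 271, 321 and 254 CPM in injury only libraries against 248, 266, 255 and 231 CPM in uninjured libraries (0.20, SE 0.08), and Cd68 had 1068, 963, 1081 and 992 CPM in injury only libraries against 979, 916, 867 and 858 CPM in uninjured libraries (0.18, SE 0.08). All 3 overlapped between groups. At day 60 Pld3 had 491, 391 and 527 CPM in injury only libraries against 266, 277 and 266 CPM in uninjured libraries. The Pld3 groups were apart but the difference did not pass the threshold (0.75, SE 0.17, adjusted p = 0.24). Cd63 had 485, 503 and 654 CPM in injury only libraries against 397, 368 and 386 CPM in uninjured libraries (0.47, SE 0.18, adjusted p = 1), also without overlap. Atp6v0d2 had 2.99, 0 and 8.97 CPM in injury only libraries and 0 in the 3 uninjured ones. The uninjured libraries of day 60 were shallower, with 2930843 to 3739798 counts in genes against 8431455 to 12306417 in injury only libraries. Depth and injury cannot be told apart there. At day 60, 7 of the 34 genes had all injured libraries above all uninjured ones, where 6.52% of all genes did.

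Over the whole course, mean levels traced different paths for different genes. Cd63 averaged 1002 ± 164, 676 ± 44.2, 898 ± 214, 453 ± 54.7 and 548 ± 92.5 CPM in injury only libraries at days 1, 7, 14, 30 and 60 (SD), against 344 ± 34.5, 296 ± 55.7, 465 ± 433, 348 ± 90.9 and 384 ± 14.6 CPM in uninjured libraries. Gusb averaged 577 ± 37.1, 477 ± 34.1, 552 ± 51.7, 355 ± 26.3 and 325 ± 33.0 CPM in injury only libraries, against 355 ± 22.7, 362 ± 32.4, 409 ± 198, 314 ± 23.5 and 297 ± 18.4 CPM in uninjured libraries. For both, the gap between the means was widest at day 1 and by day 60 the libraries overlapped for Gusb and not for Cd63. Grn averaged 2346 ± 173, 3605 ± 127, 2877 ± 95.6, 2330 ± 102 and 2827 ± 389 CPM in injury only libraries, against 2482 ± 165, 2243 ± 138, 1905 ± 1269, 2253 ± 111 and 2448 ± 162 CPM in uninjured libraries, with its peak at day 7. Laptm5 averaged 3172 ± 121, 3729 ± 202, 3718 ± 207, 4743 ± 114 and 6292 ± 814 CPM in injury only libraries, against 4737 ± 403, 4139 ± 288, 3049 ± 705, 4999 ± 238 and 5868 ± 589 CPM in uninjured libraries. Uninjured Laptm5 means also varied from day to day, among days 1, 7 and 30 of the main library year as well as at days 14 and 60 of other years. The day 14 means in this and the next paragraph include all libraries, those that stood apart as well.

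Cd68 averaged 1196 ± 115, 1090 ± 106, 1374 ± 198, 1026 ± 57.8 and 1254 ± 138 CPM in injury only libraries, against 945 ± 124, 880 ± 110, 995 ± 401, 905 ± 55.4 and 1004 ± 21.6 CPM in uninjured libraries, a higher mean at each day. Lamp1 averaged 1509 ± 137, 1988 ± 90.9, 2165 ± 85.6, 1661 ± 109 and 2432 ± 514 CPM in injury only libraries, against 1760 ± 100, 1504 ± 95.2, 1715 ± 575, 1552 ± 76.0 and 2039 ± 76.0 CPM in uninjured libraries, lower at day 1 and higher after it. Npc2 averaged 433 ± 59.6, 542 ± 47.4, 612 ± 49.4, 479 ± 48.0 and 862 ± 201 CPM in injury only libraries, against 478 ± 50.5, 394 ± 24.1, 541 ± 159, 436 ± 25.8 and 735 ± 69.5 CPM in uninjured libraries. Lipa was at 129 ± 17.4 CPM in injury only against 102 ± 10.9 CPM in uninjured libraries at day 7, and at 104 ± 11.7 CPM in injury only against 78.7 ± 10.5 CPM in uninjured libraries at day 60. Psap averaged 1036 ± 50.5 CPM in injury only and 1122 ± 47.6 CPM in uninjured libraries at day 1, and 1354 ± 192 CPM in injury only against 1095 ± 103 CPM in uninjured libraries at day 7. Atp6v0d1 stayed between group means of 62.5 and 109 CPM over all days and treatments, and Tfeb between 54.4 and 99.1 CPM. Atp6v0d2 had group means from 0 to 12.6 CPM, the highest in injury only libraries of day 14.

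Clodronate against vehicle liposomes asked whether lysosomal genes of microglia differ after injury under clodronate, which the series used to deplete peripheral monocytes. At day 1 none of the 10 monocyte markers tested was called. Their summed level was 95.9 to 159 CPM in clodronate and 99.5 to 191 CPM in vehicle libraries. edgeR called none of the 34 genes at any of the 5 days, where 0.199%, 0.574%, 0%, 0% and 0% of all genes were called at days 1, 7, 14, 30 and 60. An unadjusted p under 0.05 was reached by 12, 7, 2, 6 and 3 of the 34 genes, and DESeq2's Wald test called 1, 2, 0, 0 and 0. The test of whether the clodronate effect differed by day called none of the 34, where 0.117% of 15414 genes were called; 4 of the 34 had an unadjusted p under 0.05.

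At day 1, 30 of 33 fold changes were positive, with a median of 0.16 against 0.003 over all genes. Grn had 2981, 2938 and 3133 CPM in clodronate libraries of the main library year and 3378, 2674 and 3065 CPM in those of the later year, against 2562 and 2534 CPM in vehicle libraries of the main year and 2360 and 2193 CPM in those of the later year. Every clodronate library was above every vehicle library, within each year as well as across them, and the difference did not pass the threshold (0.31, SE 0.09, adjusted p = 0.2). Man2b1 had 1509, 1498 and 1373 CPM in clodronate libraries of the main library year and 1913, 1331 and 1590 CPM in those of the later year, against 1363 and 1125 CPM in vehicle libraries of the main year and 1168 and 1070 CPM in those of the later year (0.36, SE 0.11, adjusted p = 0.23). Psap had 963, 1037 and 1209 CPM in clodronate libraries of the main library year and 1486, 1286 and 1301 CPM in those of the later year, against 1046 and 974 CPM in vehicle libraries of the main year and 1030 and 766 CPM in those of the later year (0.32, SE 0.10, adjusted p = 0.27). In Psap the groups overlapped in the main year and not in the later one.

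At day 7, 7 of 34 fold changes were positive, with a median of -0.16 against -0.005 over all genes. Without vehicle library 5 the median was -0.01 and 15 of 34 were positive, so the negative median rested on that library. Scarb2 had 193, 201, 207, 179 and 173 CPM in clodronate libraries against 225, 214, 337 and 275 CPM in vehicle libraries (-0.49, SE 0.14, adjusted p = 0.1). Hexa had 1232, 1431, 1432, 1293 and 1245 CPM in clodronate libraries against 1574, 1537, 1568 and 1929 CPM in vehicle libraries (-0.35, SE 0.10, adjusted p = 0.12). Neither gene overlapped between groups, and Scarb2 was called when vehicle library 2 was left out. Atp6v0d2 had 1.42, 1.02, 0.459, 0.216 and 0.84 CPM in clodronate libraries against 1.76, 1.73, 0.978 and 4.08 CPM in vehicle libraries. Leaving out the shallow vehicle library 4 gave no call among the 34 genes. In this comparison 5 of 12 endothelial and mural markers rose, at 2607 to 4766 CPM in clodronate and 1157 to 1920 CPM in vehicle libraries. All 9 border-associated macrophage markers had negative fold changes and 1 was called. Their summed levels were 48.7 to 105 CPM in clodronate and 92.3 to 246 CPM in vehicle libraries. All 4 neutrophil markers tested were negative and none was called, at 1.11 to 7.77 CPM in clodronate and 5.86 to 29.9 CPM in vehicle libraries. The part of these markers in the lysosomal values was not tested.

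At day 14 the 3 smallest p were those of Ids, Npc1 and Lipa. Ids, iduronate 2-sulfatase, had 66.8, 45.0, 66.0, 63.2 and 63.4 CPM in clodronate libraries against 47.8, 54.2, 46.2, 50.1 and 42.0 CPM in vehicle libraries (0.32, SE 0.13, adjusted p = 0.39). Npc1 had 44.3, 39.2, 34.7, 56.3 and 53.2 CPM in clodronate libraries against 36.5, 38.6, 37.1, 33.5 and 25.1 CPM in vehicle libraries (0.39, SE 0.17). Lipa had 126, 208, 145, 226 and 198 CPM in clodronate libraries against 165, 115, 163, 130 and 128 CPM in vehicle libraries (0.34, SE 0.18). Groups overlapped for all 3. Without library 1 of both groups the fold changes were 0.26 for Ids (SE 0.13), 0.41 for Npc1 (SE 0.18) and 0.49 for Lipa (SE 0.15), and Lipa alone of these passed the threshold.

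Library 1 of each day 14 group lay far from the other 4. Cd63 had 280, 1233, 1721, 1080 and 1264 CPM in clodronate libraries 1 to 5 against 1518, 484, 708, 596 and 699 CPM in vehicle libraries 1 to 5. Grn had 2096, 5441, 5314, 4350 and 4264 CPM in clodronate libraries against 5351, 2263, 2854, 2685 and 2914 CPM in vehicle libraries. Arsb had 208, 97.7, 97.1, 113 and 107 CPM in clodronate libraries against 76.6, 190, 161, 155 and 158 CPM in vehicle libraries. In all 3 genes library 1 of each treatment lay apart from libraries 2 to 5 of its own treatment, towards or beyond those of the other. Without both, 20 of 34 genes were higher and 2 lower, where 24.7% of 13033 genes were called, 13.2% as higher and 11.5% as lower, and the median was 0.39 against -0.02 over all genes. The largest were Cd63 (1.05, SE 0.16), Gla (0.93, SE 0.15), Grn (0.81, SE 0.12), Galns (0.81, SE 0.17), Pld3 (0.80, SE 0.14), Gusb (0.68, SE 0.10) and Lamp1 (0.64, SE 0.11), and the lower ones Arsb (-0.72, SE 0.10) and Tfeb (-0.39, SE 0.12). Both libraries were set aside because of their levels, so these values describe 4 against 4 libraries and are not a test of clodronate. Whether their labels were exchanged was not tested. With all libraries kept, summed monocyte markers were 45.8 to 1580 CPM (median 921) in clodronate and 89.4 to 652 CPM (median 111) in vehicle libraries. None of the 10 monocyte markers tested was called, and their part in these values was not tested.

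**Figure D5:**
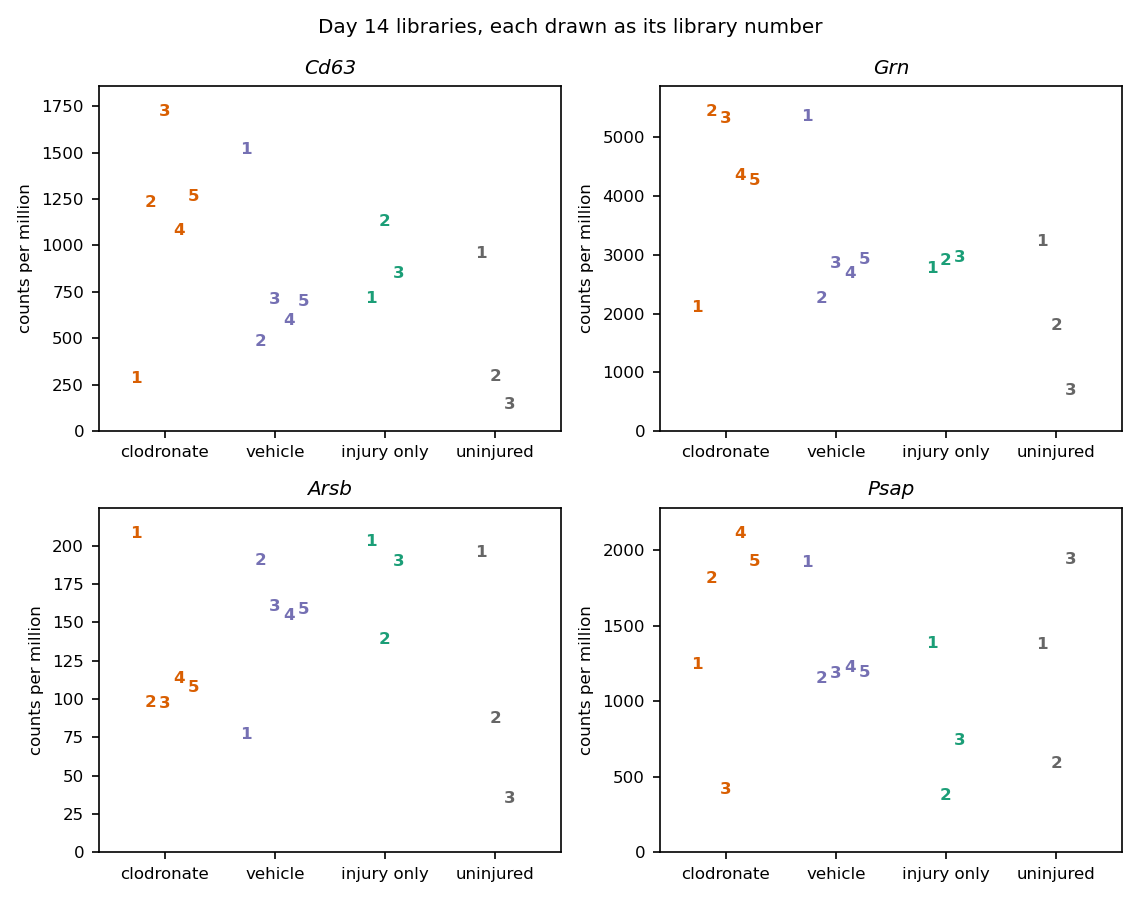
CPM of Cd63, Grn, Arsb and Psap in the day 14 libraries, each drawn as its library number within its treatment. For Cd63, Grn and Arsb clodronate library 1 sits beyond vehicle libraries 2 to 5 and away from clodronate libraries 2 to 5, and vehicle library 1 sits among or, for Arsb, below clodronate libraries 2 to 5; uninjured libraries 1 to 3 spread from 145 to 958 CPM for Cd63.

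Psap varied at day 14 in another pattern, with 1245, 1813, 419, 2111 and 1923 CPM in clodronate libraries, 1919, 1147, 1181, 1219 and 1189 CPM in vehicle libraries, 1384, 373 and 741 CPM in injury only libraries and 1374, 590 and 1940 CPM in uninjured libraries. Its low libraries were clodronate library 3, injury only libraries 2 and 3 and uninjured library 2. At day 30 Ids had 52.0, 52.3, 62.5 and 46.2 CPM in clodronate libraries against 67.8, 79.5, 67.7 and 67.0 CPM in vehicle libraries, apart but not called (-0.40, SE 0.15, adjusted p = 0.5). Atp6ap1, an accessory subunit of the pump, was at 0.20 (SE 0.08) with 677, 600, 549 and 683 CPM in clodronate against 555, 527, 576 and 531 CPM in vehicle libraries. Naglu was at 0.21 (SE 0.08) with 295, 299, 265 and 295 CPM in clodronate against 267, 229, 264 and 244 CPM in vehicle libraries. At day 60 Tfeb had 78.8, 75.7, 93.7 and 102 CPM in clodronate libraries against 65.6, 36.1, 65.6 and 79.3 CPM in vehicle libraries (0.46, SE 0.21, adjusted p = 0.75). Psap was at -0.30 (SE 0.14) and Atp6v0d1 at -0.32 (SE 0.15) at day 60, with overlapping groups. Ids was the single one of these day 30 and day 60 genes whose groups did not overlap.

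Vehicle liposomes against injury only asked what liposomes alone change after injury; it shares the vehicle libraries with the clodronate comparison and the injury only libraries with the uninjured one. At day 1, with library year as a term, 1 gene rose and 1 fell of 33 tested (6.06%), where 0.942% of 13593 genes were called, 0.228% as higher and 0.714% as lower. Manba, beta-mannosidase, had 105 and 86.1 CPM in vehicle libraries of the main year and 75.3 and 80.5 CPM in those of the later year, against 66.2, 67.1, 79.0, 69.8 and 66.7 CPM in injury only libraries, all of the main year (0.43, SE 0.10, adjusted p = 0.049). Gla had 28.4 and 23.3 CPM in vehicle libraries of the main year and 26.8 and 24.3 CPM in those of the later year, against 59.1, 43.6, 44.3, 35 and 37.1 CPM in injury only libraries (-0.85, SE 0.20, adjusted p = 0.045). The Gla of vehicle libraries of either year lay below all injury only libraries, and Manba groups overlapped through the libraries of the later year. Neither call held throughout: Gla lost it without any of injury only libraries 1, 2 and 3, vehicle library 2 of the main year or vehicle libraries 1 and 4 of the later year, and Manba without any of injury only libraries 1, 2, 4 and 5, vehicle libraries 1 and 2 of the main year or vehicle library 4 of the later year. Gusb had 727 and 727 CPM in vehicle libraries of the main year and 739 and 698 CPM in those of the later year, above all injury only libraries at 529 to 627 CPM, and just missed the threshold (0.34, SE 0.09, adjusted p = 0.073).

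At days 7, 30 and 60, edgeR called none of the 34 genes between vehicle and injury only libraries, where 0.336%, 0% and 0.00831% of all genes were called. An unadjusted p under 0.05 was reached by 8, 4 and 2 of the 34, and DESeq2's Wald test called 2, 0 and 0. At day 7 Scarb2 had 225, 214, 337 and 275 CPM in vehicle libraries against 145, 189, 180, 198 and 202 CPM in injury only libraries (0.52, SE 0.14, adjusted p = 0.11). Gusb had 703, 609, 512 and 789 CPM in vehicle libraries against 509, 439, 445, 483 and 510 CPM in injury only libraries (0.44, SE 0.12). Lipa had 194, 154, 164 and 192 CPM in vehicle libraries against 142, 124, 101, 144 and 135 CPM in injury only libraries (0.44, SE 0.13). All 3 had every vehicle library above every injury only library, as did Galns, Atp6v0d1 and Npc1, where 1.72% of all genes did. The shallow vehicle library 4 had the highest Npc1 of its group (169 CPM, against 43.8 to 45.8 CPM in the other 3).

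At day 30 Man2b1 had 931, 982, 1070 and 980 CPM in vehicle libraries against 1219, 1212, 1171 and 1119 CPM in injury only libraries (-0.25, SE 0.09, adjusted p = 0.48), and Laptm5 had 4095, 4335, 4411 and 4322 CPM in vehicle libraries against 4690, 4681, 4688 and 4914 CPM in injury only libraries (-0.14, SE 0.06). Both were apart between groups and neither was called. Atp6v1a was at 0.21 (SE 0.10), with 137, 123, 113 and 114 CPM in vehicle and 105, 107, 115 and 95.7 CPM in injury only libraries. At day 60 Npc1 had 34.6, 35.2, 47.7 and 53.4 CPM in vehicle libraries against 22.6, 30.3 and 27.7 CPM in injury only libraries (0.73, SE 0.25, adjusted p = 0.67). Atp6v0d1 was at 0.36 (SE 0.16) and Mcoln1 at 0.40 (SE 0.23), both with overlap. Day 14 was not compared, since its vehicle and injury only libraries came from different years.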

How the data were processed

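Sorted mouse microglia were profiled by bulk RNA sequencing in 84 libraries. Per the labels' protocols, RNA was isolated with PicoPure columns and libraries were made with Nextera XT and 11 PCR cycles, with no molecular identifiers named. The authors deposited raw counts per gene, with HTSeq's summary lines; STAR and the builds mm10 and GRCm38 come from the submitters' processing notes, while no source used here gives the strand setting. Those summary lines entered neither library sizes nor tests; the share of reads in no gene was 2.59 to 22.4%. Intervals cover counting error only.

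Symbols came from GENCODE M21, which named 49412 of 49671 identifiers. edgeR 4.0.16 in R 4.3.3 was fitted to all groups of a day together, at day 14 within each library year. Library year was a term at day 1. Settings were filterByExpr with minimum count 10 and total 15, TMM scaling and edgeR's default prior count. A prior of 2 entered only the check of same-numbered libraries below. The quasi-likelihood test of edgeR was adjusted by Benjamini-Hochberg over all genes tested at a threshold of 0.05. Changes of effect between days used interaction terms. The fit was tested on simulated data. Alternatives were DESeq2 1.42.0 (Wald test, size factors), no filter, the replicate block, the compared groups alone, thinned counts, single years, whole days left out, and single libraries left out. Same-numbered libraries deviated together (every correlation over 0.1) only for vehicle against injury only at day 30, with 4 pairs at 0.115 to 0.324.

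Genes named with every library's value were the called genes with the largest fold change, up to 8 a direction, or else the 3 with the smallest p; 12 genes were followed in their levels and up to 3 called genes were named per pathway list. The genes and lists were chosen with earlier results of these data known. Within groups of the same treatment, day and library year, no pair of libraries was a duplicate, with a chi-square per degree of freedom of at least 6.15. Pairs across groups were not compared.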

Additional observations from a re-analysis of the deposited data

Results flagged for a closer look

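Among 378 groups of values over 27 genes, 28 held a library far from the others of its group (7.41%), where chance gives about 1 in 20. Of the 28, 10 were vehicle library 1 of day 14: Lamp1 at 3612, Cd63 at 1518, Scarb2 at 262, Gusb at 822, Man2b1 at 2020.7, Manba at 115, Asah1 at 997, Psap at 1919, Grn at 5351 and Atp6v1a at 190 CPM, each the highest of its group. Clodronate library 1 of day 14 stood apart for Scarb2 at 172, Glb1 at 83.6 and Arsb at 208 CPM.

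At day 7, vehicle library 4 stood apart for Sgsh at 33.2 and Tfeb at 21.5 CPM, vehicle library 5 for Hexa at 1929 and Galns at 63.1 CPM, clodronate library 3 for Tpp1 at 555 CPM, uninjured library 1 for Arsb at 177 CPM and uninjured library 4 for Atp6v0d2 at 0.0748 CPM. At day 1 they were Manba in injury only library 3 at 79.0 CPM and Gla in uninjured library 2 at 30.5 CPM. At day 30 they were Cd63 in clodronate library 4 at 668 CPM, Lipa in vehicle library 1 at 133 CPM, Laptm5 and Atp6v0d2 in injury only library 4 at 4914 and 2.85 CPM, Psap in uninjured library 2 at 1210 CPM and Atp6v0d2 in uninjured library 1 at 2.94 CPM.

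The injury effect differed between days by an interaction test over all 5 days, with adjusted p from edgeR of 0.00027 for Hexa, 0.0045 for Arsb, 0.0056 for Laptm5, 0.0058 for Glb1, 0.0085 for Scarb2, 0.023 for Idua and 0.04 for Lamp2. The number of genes called was 2 with the replicate block, 0 without day 1 and 18 without day 14. Day 7 minus day 1 differences of the log2 fold change were called for Hexa (1.32), Glb1 (1.11), Arsb (1.07), Pld3 (0.99), Gla (0.88), Grn (0.82), Scarb2 (0.80), Lamp1 (0.67), Lamp2 (0.66), Npc2 (0.65), Tpp1 (0.62), Man2b1 (0.60), Naglu (0.52), Idua (0.49), Laptm5 (0.48) and Psap (0.47).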

How the results depend on the processing

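Single-gene fold changes were followed only for genes called in a comparison or, where none was called, those with the smallest p. Over all alternatives 1209 such fold changes kept direction and call. A further 81 kept direction and lost the call, 13 kept direction and gained it, and none reversed. Since these genes were chosen by p, the lack of reversals does not extend to all 34 genes. For clodronate at day 7, 7 of 34 fold changes were positive, and 15 without vehicle library 5. The causes were not tested. Counts below are of the 34 genes unless all genes are named.

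With DESeq2's Wald test the count was 17 for the injury at day 7 (11 in edgeR) and 1 at day 60 (Pld3), 1 and 2 for clodronate at days 1 and 7, and 4 and 2 for vehicle against injury only at days 1 and 7. All genes called by it numbered 113, 401, 166, 35 and 12 for clodronate at days 1, 7, 14, 30 and 60, 408, 250, 35 and 25 for vehicle at days 1, 7, 30 and 60, and 3 and 18 for the injury at days 30 and 60. With no filter on low counts, vehicle at day 1 gave 4, the injury at day 60 gave 2 (Pld3 and Atp6v0d2) and the clodronate effect by day 1, while all genes numbered 382, 339, 26 and 77 for clodronate at days 1, 7, 30 and 60, 840, 222, 17 and 85 for vehicle at days 1, 7, 30 and 60, 37 for the injury at day 60 and 534 for the clodronate effect by day. DESeq2 size factors gave 1 for vehicle at day 1 and 12 for the injury effect by day.

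With the replicate number as a block, vehicle at day 1 gave 0 and the injury effect by day 2 (7 without it). All genes numbered 12 for clodronate at day 1, 52 for vehicle at day 30, where the numbers paired the libraries (0 without the block), 1 and 0 for the injury and vehicle at day 60, and 885 and 0 for the injury and clodronate effects by day. Elsewhere libraries shared a number without pairing, and the block also removed the day 1 injury call of Atp6v0d1. With the compared groups alone, vehicle at day 1 gave 0; all genes numbered 0 and 0 for clodronate at days 1 and 7, 20, 17 and 0 for vehicle at days 1, 7 and 60, and 1 and 1 for the injury at days 30 and 60. Either library year alone gave 3 of all genes, and 0 of the 34, for clodronate at day 1. Thinned to the shallowest library, day 60 gave 3 of all genes for the injury and 5 of all genes for vehicle, with 0 of the 34 in both.

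The injury effect by day gave 0 without day 1 (0 of all genes), 18 without day 14 and 13 without day 60, and 1237 of all genes without day 7. The clodronate effect by day gave 0, 11, 2, 62 and 0 of all genes without days 1, 7, 14, 30 and 60. Day 7 minus day 1 gave 8 with the libraries of all 5 days (886 of all genes, against 2745). Without library 1 of both day 14 groups, chosen after seeing the data, clodronate gave 22 (3224 of all genes), and without uninjured libraries 1 and 3 the injury gave 15 (2612).

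Leaving out each library in turn gave 17 to 20 for the injury at day 1, 8 to 11 at day 7, 0 to 1 for vehicle at day 1, 0 to 1 for clodronate at day 7 and 16 to 17 for day 7 minus day 1, and 0 for the other comparisons. All genes numbered 4411 to 4730, 592 to 1068, 0, 0 to 32 and 2 to 6 for the injury at days 1, 7, 14, 30 and 60, 0 to 72, 12 to 355, 0 to 278, 0 to 140 and 0 to 1 for clodronate, 25 to 183, 15 to 91, 0 to 8 and 0 to 9 for vehicle at days 1, 7, 30 and 60, and 2365 to 2784 for day 7 minus day 1. Single libraries behind shifts of over 1.5 times included, for the injury at day 7, injury only library 1 (692) and uninjured libraries 1 (630), 2 (592) and 3 (694), for clodronate at day 7 vehicle libraries 2 (355) and 5 (12), at day 14 vehicle library 1 (278) and at day 30 vehicle library 1 (140).

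Depth limited Atp6v0d2, whose fitted folds rest on counts near 0, and vehicle library 4 of day 7. It also limited day 60, where vehicle library 1 was the shallowest of all and uninjured libraries were shallower than injury only libraries.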
